A study of Mus musculus with 8 samples.

Results

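The genes described are 29 mouse genes of cholesterol synthesis and its control by the transcription factor SREBP2, chosen as a named list of symbols and read out in whole aorta. All 29 were among the 24411 gene names with counts, and 28 were among the 14679 genes with enough reads to be tested. The exception was Idi1, which had at most 9 reads in any library. No member passed the test between caIKK2EC and Control aortas, and in edgeR none of the 14679 genes tested did. The members' fitted differences were small, with a median log2 fold change of -0.11.

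The 5 caIKK2EC mice were caIKK2(+/+) BMXCreERT2(+/-) ApoE(-/-). They carried a constitutively active form of the kinase IKK2, a co-translated EGFP and a loxP-flanked STOP cassette, which a tamoxifen-inducible Cre driven by BMX removes in arterial endothelial cells. The 3 Control mice were Cre-negative littermates, caIKK2(+/+) BMXCreERT2(-/-) ApoE(-/-), which carried the transgene without Cre and lacked apolipoprotein E in the same way. Tamoxifen, 1 mg per 20 g of mouse, was injected in both groups, and both were fed a Western-type diet with 2070 mg/kg cholesterol for 12 weeks. The caIKK2EC mice were 18 or 19 weeks old and all female. Controls 1 and 2 were 18-week-old females and Control 3 was a 19-week-old male. All animals therefore lacked ApoE, ate the cholesterol-rich diet and had received tamoxifen.

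Poly(A) RNA of the whole vessel was read as single 50-nt reads, with 23461655 to 30808502 reads counted in genes per library. Activation was directed at arterial endothelium, but every cell type of the vessel contributes reads, and in such bulk tissue fewer cells of a type and less RNA per cell cannot be told apart. The names of the count columns hold a 7 or an 8, taken here as the sequencing lane, a meaning the names do not state. By this reading, lane 7 held all 3 Control libraries and caIKK2EC 1, and lane 8 held only caIKK2EC libraries. Genotype and lane can therefore be separated only through caIKK2EC 1, and genotype and sex only through Control 1 and 2. Ikbkb, which encodes IKK2, had 98.4 ± 4.07 CPM (CPM are counts scaled to the same library total, with TMM factors) in caIKK2EC and 79.7 ± 12.4 CPM in Control (SD, n = 5 and 3), with no overlap between the groups and an adjusted p of 0.237 in edgeR. Summed markers of macrophages were at 12535 to 18246 CPM in caIKK2EC and 4379 to 11470 CPM in Control, and those of smooth muscle at 10062 to 20857 CPM in caIKK2EC and 18335 to 36541 CPM in Control. DESeq2 called 10 of 11 macrophage markers higher in caIKK2EC (8 without Control 3), 1 of 8 smooth muscle markers lower and 0 of 10 adipocyte markers. Over all its genes it called 3.91% higher and 1.3% lower, and without Control 3 it called 356 of 16581 higher. No marker of any list was at 0 in any library, and the part of these differences in the results was not tested.

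Cholesterol is built from acetyl-CoA through mevalonate, farnesyl diphosphate, squalene and lanosterol, and side branches give the lipid anchors of prenylated proteins, dolichol and ubiquinone. SREBP2 is made as a membrane protein of the endoplasmic reticulum. When membrane sterol is low, SCAP escorts it to the Golgi, where the proteases encoded by Mbtps1 and Mbtps2 release its active end, which switches on nearly every enzyme of the pathway. Sterol-bound SCAP is held back by the INSIG proteins, and cells that take up much cholesterol keep the pathway low. The cleavage itself is not measured by RNA levels.

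The pathway was expressed in both groups at unequal levels along its length. Levels of different genes are compared here as CPM per kb of merged exon. Over the 8 libraries the highest mean levels were 22.5 for the desaturase gene Fads1, 17.1 for Hmgcs1, the synthase that makes the precursor of mevalonate, and 16.8 for Insig2. Low levels were found for Lss, the lanosterol synthase, at 1.17, for the sterol carrier gene Stard4 at 0.604 and for Idi1 at 0.0617. Idi1 has near-identical copies, so its value may leave out reads that map to several places. Hsd17b7 at 1.27 and Tm7sf2 at 1.36 were close to Lss. The Lss value rests on a merged exon length of 10787 bp. Not scaled by length, Lss had 11.6 CPM in caIKK2EC and 14.3 CPM in Control on average, above Mvd with 9.93 and 7.97 CPM. Among the ring steps after squalene, the isomerase gene Ebp had the highest level, with 16.2 ± 1.66 in caIKK2EC and 16.3 ± 1.58 in Control (CPM per kb, SD, n = 5 and 3). Ebp was at the level of Insig2 and Mbtps1 (15.9), whose spreads between libraries overlapped its own.

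**Figure D1:**
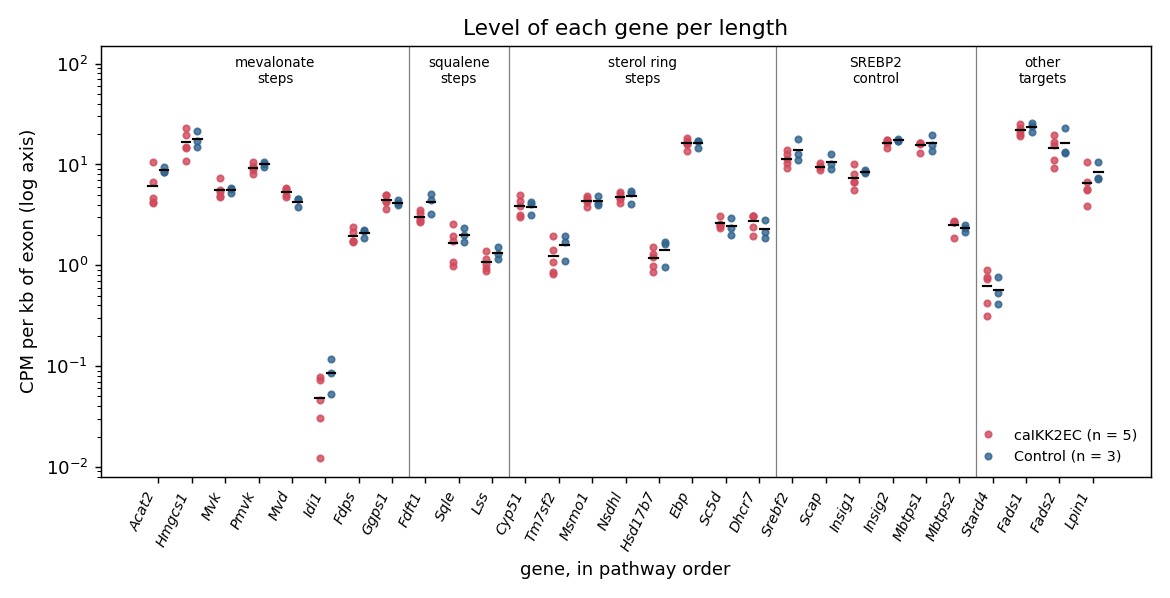
Level of each of the 29 genes in CPM per kb of exon (vertical, log axis), in pathway order along the horizontal axis, with 1 point per library for caIKK2EC (n = 5, left, red) and Control (n = 3, right, blue) and a line at each group's mean. Levels range over the genes from 0.0617 for Idi1 to 22.5 for Fads1 as 8-library means, while the groups overlap for all tested genes except Mvd.

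Of the 28 tested members, 0 were called higher and 0 lower in caIKK2EC when edgeR's quasi-likelihood p-values were adjusted over all genes and held to 0.05, against a background of 0% higher and 0% lower over all genes tested. DESeq2 called 0 members in either direction, against 3.91% of its 16671 genes higher and 1.3% lower. In the authors' deposited table the lowest adjusted p of a member was 0.119, for Fdft1. At an unadjusted edgeR p below 0.05 there were 0 members higher, with a background of 9.66%, and 1 member lower, with a background of 7.47%. In 1 member, Mvd, every caIKK2EC library lay above every Control library (background 7.01%), and in 0 members below (background 3.22%).

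The point estimates leaned slightly to lower values. In 20 of 28 members (71.4%) the log2 fold change was below 0, compared with 52.6% of all genes tested, and the members' median of -0.11 was a fold of 0.928, beside a median of -0.02 over all genes. The median size of the log2 fold change, sign left aside, was 0.13 in the members and 0.21 over all genes. In the fit without lane, the 95% interval of the fold change lay within 2-fold either way for 26 members and within 1.5-fold for 14. The exceptions to the 2-fold bound in that fit were Acat2 and Tm7sf2. These limits depend on leaving lane out. Within lane 7 every estimate compares caIKK2EC 1 alone with the 3 Controls. There the interval lay within 2-fold for 19 members. The estimates of 8 members (Acat2, Ggps1, Sqle, Dhcr7, Insig1, Stard4, Fads2 and Lpin1) lay outside their intervals of the fit without lane. Without Control 3 the members' median was -0.06 and 6 members changed sign; within lane 7 the median was -0.19 and 13 changed sign.

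**Figure D2:**
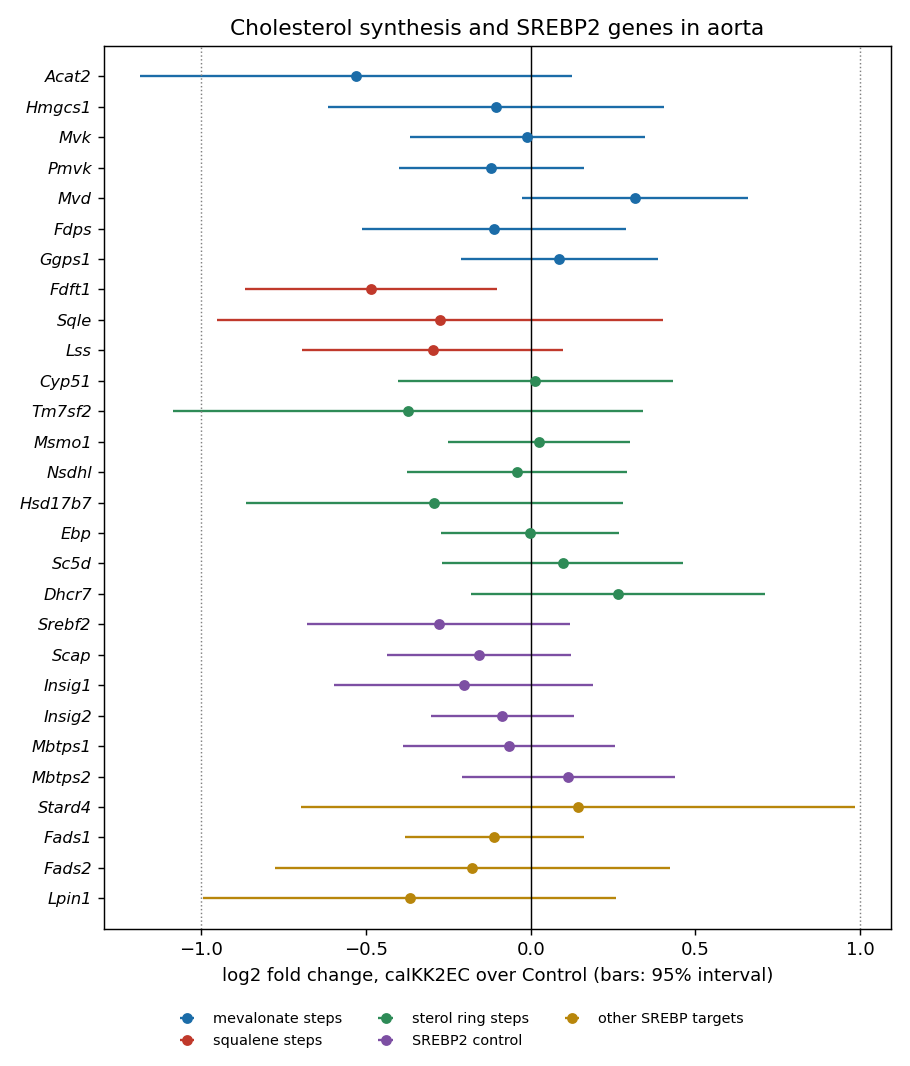
Log2 fold change of caIKK2EC over Control (horizontal; bars are 95% intervals from edgeR's quasi-likelihood fit, n = 5 and 3) for the 28 tested members in pathway order, coloured by role, with dotted lines at a 2-fold difference either way and lane left out of the fit. Only the interval of Fdft1, from -0.87 to -0.10, lies wholly on one side of 0, and its adjusted p is 0.203.

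The mevalonate steps, from acetyl-CoA units to farnesyl and geranylgeranyl diphosphate, had a median log2 fold change of -0.11 over 7 tested genes, 5 of them below 0. The median was -0.16 without Control 3 and turned to 0.06 within lane 7. Acat2, the cytosolic thiolase that joins acetyl-CoA units (chromosome 17, 12942890 to 12960747, GRCm38, minus strand), had 26.9, 10.7, 10.5, 11.9 and 17.01 CPM in caIKK2EC 1 to 5. In Control 1 to 3 it had 21.3, 23.8 and 21.6 CPM. The caIKK2EC libraries 2 to 5 were below every Control, and caIKK2EC 1 was above them all. The log2 fold change was -0.53 with an SE of 0.29 (adjusted p 0.390 in edgeR; exact two-sided permutation p 0.143 over the 56 possible splits). Without caIKK2EC 1 it was -0.82 (unadjusted p 0.00172, adjusted p 0.102 in edgeR), but genotype and lane coincide in that fit and cannot be told apart. Within lane 7 the log2 fold change turned positive, at 0.28. Acat2 transcripts are 97.7% identical over 1477 bp to Acat3, which had 2.06 CPM in caIKK2EC and 2.04 CPM in Control on average, so reads of the pair may have been split. Another match, of 445 bp at 98.7% identity, was to Tcp1, and the part of shared reads was not tested.

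Mvd, the decarboxylase that makes isopentenyl diphosphate (chromosome 8, 122433601 to 122443422, minus strand), went the other way. It had 10.8, 9.27, 8.75, 10.6 and 10.3 CPM in caIKK2EC 1 to 5 and 8.41, 8.39 and 7.11 CPM in Control 1 to 3. The groups did not overlap, although the lowest caIKK2EC library and the highest Control were close. Its log2 fold change was 0.32 with an SE of 0.15 (adjusted p 0.329 in edgeR), and the exact permutation p of 0.0357 is the smallest that 5 against 3 libraries can give. The other measured steps gave log2 fold changes of -0.11 for Hmgcs1, -0.01 for the mevalonate kinase gene Mvk, -0.12 for the phosphomevalonate kinase gene Pmvk, -0.11 for the farnesyl diphosphate synthase gene Fdps and 0.09 for Ggps1, which makes the geranylgeranyl anchor. Idi1, the isopentenyl diphosphate isomerase, had 7, 6, 1, 3 and 5 reads in caIKK2EC 1 to 5 and 5, 8 and 9 reads in Control 1 to 3. Idi1 and Fdps have pseudogene copies of over 95% identity, so their low counts may leave out reads that map to several places. Fdps also shares 1124 bp of exon with Gm43738, a protein-coding model on the same strand, and reads there may not be counted for Fdps.

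The squalene steps commit farnesyl diphosphate to sterols, and all 3 of their genes had fold changes below 0, with a median of -0.30, which was -0.18 without Control 3 and -0.55 within lane 7. Fdft1, the squalene synthase at this branch point (chromosome 14, 63145150 to 63179578, minus strand), had 12.2, 13.9, 11.7, 11.3 and 15.04 CPM in caIKK2EC 1 to 5. Its levels in Control 1 to 3 were 18.7, 13.8 and 21.4 CPM. Controls 1 and 3 were above all caIKK2EC libraries, and Control 2 lay among them. The log2 fold change of -0.48 had an SE of 0.17 (unadjusted p 0.0178, adjusted p 0.203 in edgeR; adjusted p 0.119 in DESeq2; exact permutation p 0.107), and it ranged from -0.63 to -0.34 when each library was left out in turn. The last value was without Control 3. Fdft1 shares 774 bp of exon with Ctsb, the cathepsin B gene on the opposite strand, which had 10212 ± 1034 CPM in caIKK2EC and 6293 ± 1708 CPM in Control (SD, n = 5 and 3). The library kit keeps strand, but no source used here states the strand setting of the counting, so the part of shared reads was not tested.

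Lss, which closes the squalene epoxide into lanosterol (chromosome 10, 76531588 to 76557138, plus strand), had 12.5, 9.56, 10.1, 11.1 and 14.8 CPM in caIKK2EC 1 to 5. Its Control 1 to 3 levels were 13.9, 12.6 and 16.5 CPM. The groups overlapped through caIKK2EC 5, and the log2 fold change was -0.30 with an SE of 0.18 (adjusted p 0.423 in edgeR; exact permutation p 0.143). Sqle, the squalene epoxidase, spread widely within both groups, from 5.4 to 14.2 CPM in caIKK2EC and from 9.37 to 13.1 CPM in Control, with a log2 fold change of -0.28 and an SE of 0.30. Within lane 7 the Sqle estimate was -1.05, which rests on the 5.4 CPM of caIKK2EC 1.

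The sterol ring steps, which trim lanosterol to cholesterol, had a median log2 fold change of 0.01 over 8 genes, 4 above and 4 below 0; within lane 7 the median was -0.17. Dhcr7, the reductase that makes cholesterol from its dehydro precursor (chromosome 7, 143823145 to 143848410, plus strand), had 11.3, 17.8, 18.0, 14.0 and 18.1 CPM in caIKK2EC 1 to 5. In Control 1 to 3 it had 16.2, 12.5 and 10.9 CPM. The caIKK2EC libraries 2, 3 and 5 exceeded every Control, and caIKK2EC 1 was below 2 of the 3. Its log2 fold change was 0.27 with an SE of 0.20 (adjusted p 0.536 in edgeR; exact permutation p 0.214), 0.15 without Control 3 and -0.22 within lane 7. The remaining ring genes were closest to 0 for Ebp (-0.0017), the lanosterol demethylase gene Cyp51 (0.01), the methylsterol oxidase gene Msmo1 (0.03), the dehydrogenase gene Nsdhl (-0.04) and the desaturase gene Sc5d (0.10). Larger negative estimates came with wider errors for Hsd17b7 (-0.29, SE 0.26) and Tm7sf2 (-0.37, SE 0.32), both reductases with mean levels below 8 CPM in both groups. Tm7sf2 shares 532 bp of exon with Vps51 on the same strand.

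The genes that control SREBP2 processing had a median log2 fold change of -0.12 over 6 genes, 5 of them below 0. The median was -0.03 without Control 3 and -0.23 within lane 7. Srebf2, which encodes SREBP2 (chromosome 15, 82147181 to 82205379, plus strand), had 65.7, 100.1, 73.6, 80.9 and 90.9 CPM in caIKK2EC 1 to 5. It had 79.9, 92.0 and 127.4 CPM in Control 1 to 3. Control 3 stood above all other libraries and Controls 1 and 2 lay within the caIKK2EC range. The log2 fold change was -0.28 with an SE of 0.18 (adjusted p 0.462 in edgeR; exact permutation p 0.286), and without Control 3 it was -0.06. Scap, the escort (chromosome 9, 110333288 to 110384950, plus strand), had 69.5, 77.3, 70.03, 66.0 and 72.0 CPM in caIKK2EC 1 to 5 and 66.6, 75.8 and 95.2 CPM in Control 1 to 3, again highest in Control 3. Its log2 fold change of -0.16 (SE 0.12, adjusted p 0.555 in edgeR) was -0.0034 without that library.

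Insig1, whose own transcription rises with SREBP activity and whose protein retains SCAP (chromosome 5, 28071363 to 28078662, plus strand), had 31.04, 20.5, 17.4, 20.6 and 24.7 CPM in caIKK2EC 1 to 5. Its Control 1 to 3 levels were 27.6, 26.0 and 25.4 CPM. As for Acat2, 4 caIKK2EC libraries were below every Control and caIKK2EC 1 was above them all. Over all libraries the log2 fold change was -0.20 with an SE of 0.18 (adjusted p 0.594 in edgeR). It was -0.33 without caIKK2EC 1 (unadjusted p 0.0457, adjusted p 0.267 in edgeR) and 0.24 within lane 7. In the fit without caIKK2EC 1, genotype cannot be told apart from lane. Insig2, the second retention protein (chromosome 1, 121304353 to 121332589, minus strand), was the steadiest member, with 50.1, 58.1, 60.2, 56.8 and 60.7 CPM in caIKK2EC 1 to 5 and 60.04, 62.4 and 59.6 CPM in Control 1 to 3. Its highest library was 1.25 times its lowest, and its log2 fold change was -0.09 with an SE of 0.10 (adjusted p 0.698 in edgeR). The protease genes Mbtps1 and Mbtps2 had log2 fold changes of -0.07 and 0.11, and Mbtps2 shares 2867 bp of exon with Yy2 on the same strand.

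Upstream sequence was examined for the 24 members with a promoter window in RefSeq (GRCm38.p6; 250 bases before to 50 after the start), searching both strands. The classical 10-letter sterol regulatory element, which adds an A before and a C after TCACCCCA, was found in 0 of these windows and in 0.1% of 27025 genes. Its shortened core TCACNCCA, a form chosen after the sequences had been seen, was in 3 members (12.5%; Hmgcs1, Srebf2 and Msmo1), against 4.97% of all genes. The CCAAT box, bound by NF-Y beside SREBPs in known sterol promoters, was in 18 members (75%; 41.1% of all genes). The E-box CACGTG was in 5 (20.8%; 8.09% of all genes), namely Dhcr7, Hsd17b7, Insig1, Sc5d and Scap. These matches are letters in a window and not shown binding sites. The stretches just upstream of a pathway enzyme, of the factor itself and of its feedback gene are shown to let the elements be compared; they run 5′ to 3′ on the plus strand, in lower case, with capitals at matches to TCACNCCA, CCAAT (read ATTGG on the other strand) and CACGTG. The regions are chr13:119690211-119690350, chr15:82147041-82147180 and chr5:28071223-28071362.
Hmgcs1: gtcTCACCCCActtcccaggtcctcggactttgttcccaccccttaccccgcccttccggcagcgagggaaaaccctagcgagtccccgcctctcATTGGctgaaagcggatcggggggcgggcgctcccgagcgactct
Srebf2: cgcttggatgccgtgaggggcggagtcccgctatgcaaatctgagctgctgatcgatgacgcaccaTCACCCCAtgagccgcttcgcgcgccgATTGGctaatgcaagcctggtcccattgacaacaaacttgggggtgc
Insig1: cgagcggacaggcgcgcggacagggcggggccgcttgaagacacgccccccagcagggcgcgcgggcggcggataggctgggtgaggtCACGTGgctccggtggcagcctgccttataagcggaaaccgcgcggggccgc

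In the Hmgcs1 and Srebf2 stretches a TCACCCCA match precedes an ATTGG match, and the Insig1 stretch holds a CACGTG match; the Insig1 window also has an ATTGG match at -216 from the RefSeq start, outside the stretch shown. None of the 3 genes passed the test, and in edgeR none of the 14679 genes tested did.

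The remaining 4 members are SREBP targets outside the pathway, with a median log2 fold change of -0.14, 3 of them below 0. Without Control 3 this median turned to 0.05, and within lane 7 it was -0.57. Lpin1, a phosphatidate phosphatase of triglyceride synthesis (chromosome 12, 16535669 to 16610966, minus strand), had 102.5, 37.0, 65.1, 53.4 and 55.8 CPM in caIKK2EC 1 to 5. In Control 1 to 3 it had 69.7, 70.6 and 102.7 CPM. Again caIKK2EC 1 was apart from its group, here level with Control 3, while the other caIKK2EC libraries were below every Control. The log2 fold change was -0.37 with an SE of 0.28 (adjusted p 0.541 in edgeR), -0.16 without Control 3 and 0.34 within lane 7. Without caIKK2EC 1 it was -0.60 (unadjusted p 0.0148, adjusted p 0.173 in edgeR), a fit in which genotype and lane coincide. The desaturase genes Fads1 and Fads2, which make polyunsaturated fatty acids, had log2 fold changes of -0.11 and -0.18. Stard4 had 0.14 with the largest SE of any member, 0.38.

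Across libraries the members did not move as 1 block. Control 3 held the highest level of 10 members, among them Fdft1, Lss, Srebf2, Scap, Fads1, Fads2 and Lpin1, and the lowest of Mvd, Sc5d and Dhcr7. The library caIKK2EC 1 was highest for Acat2, Hmgcs1, Mvd, Ebp and Insig1 and lowest for 9 members, among them Sqle, Srebf2, Insig2, Mbtps1, Stard4, Fads1 and Fads2. Markers of other cell types also differed between libraries. The 10 adipocyte markers summed to 4114 CPM in caIKK2EC 1, against 587 to 1520 CPM in the other caIKK2EC libraries and 1758 to 2459 CPM in Control, so that caIKK2EC 2 to 5 were all below the Controls. The smooth muscle markers summed to 36541 CPM in Control 3 and to at most 21772 CPM in any other library. The 7 cardiac and skeletal muscle markers summed to 1068 CPM in caIKK2EC 1 and 2092 CPM in Control 1, and to 38.1 to 140.4 CPM in the other 6 libraries. The part of these markers in the levels of Acat2, Insig1, Lpin1 and Srebf2 was not tested. All 29 genes together summed to 973 ± 41.7 CPM in caIKK2EC and 1064 ± 106 CPM in Control (SD, n = 5 and 3).

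**Figure D3:**
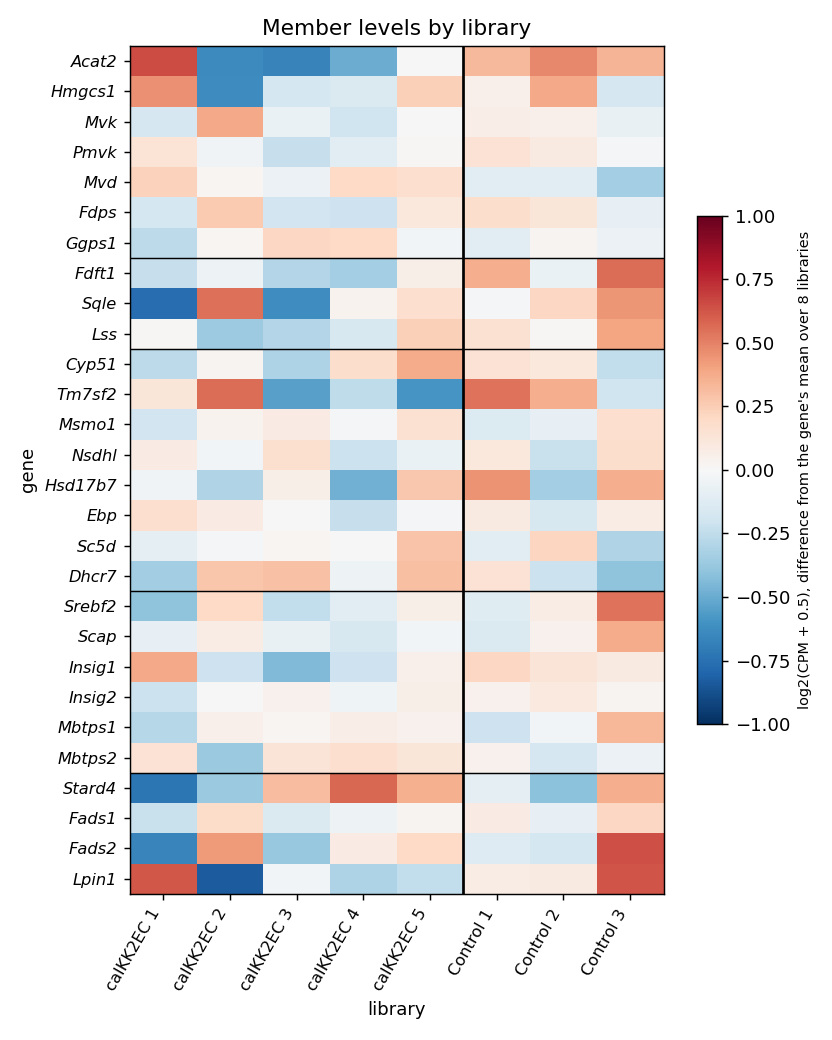
Each of the 28 tested members (rows, in pathway order, with lines between the roles) in each library (columns, caIKK2EC 1 to 5 left of the black line and Control 1 to 3 right of it), coloured by the difference of log2(CPM + 0.5) from the gene's own mean over the 8 libraries. Control 3 is the highest library for 10 members and caIKK2EC 1 the lowest for 9, and no role changes colour as a block at the line between the groups.

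**Figure D4:**
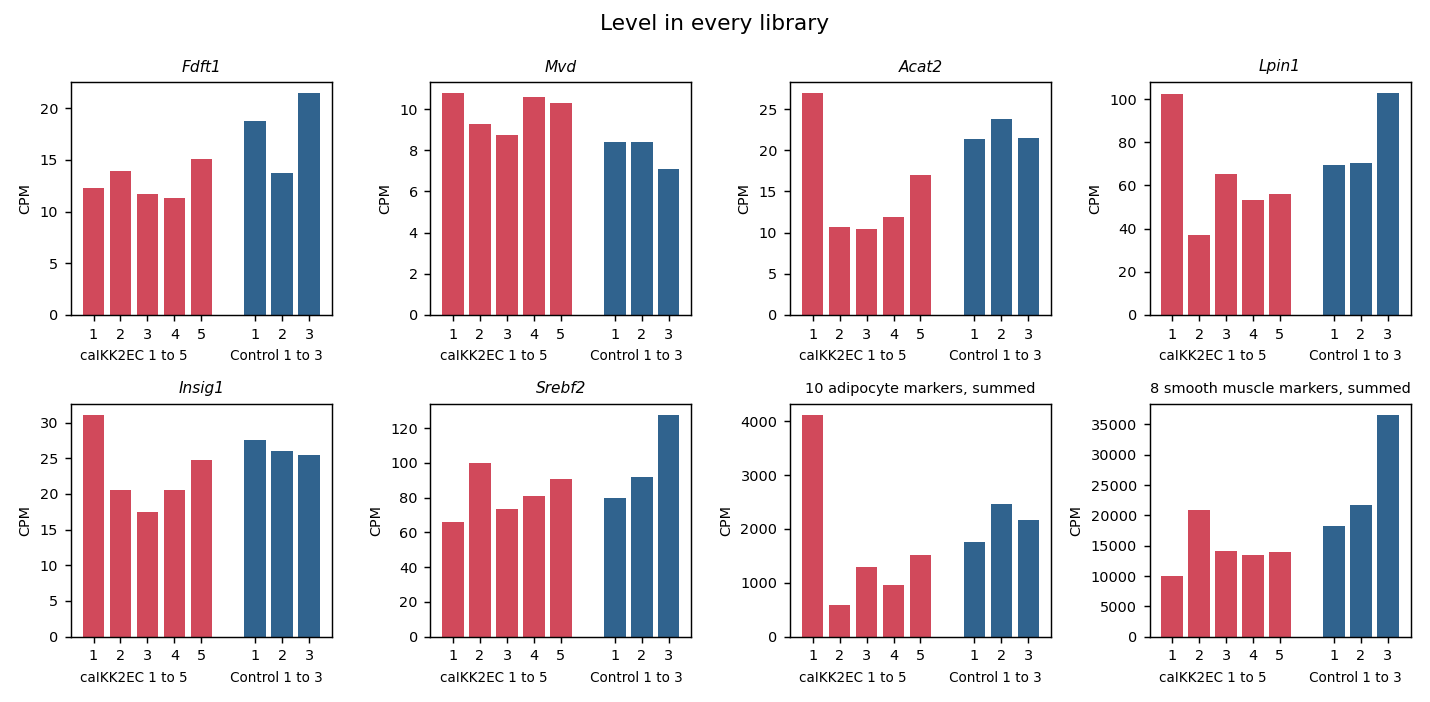
Level in CPM (vertical, from 0) in each library (bars; caIKK2EC 1 to 5 in red, Control 1 to 3 in blue) of Fdft1, Mvd, Acat2, Lpin1, Insig1 and Srebf2 and of the summed adipocyte and smooth muscle markers. The adipocyte sum is highest in caIKK2EC 1, at 4114 CPM, as are Acat2, Insig1 and Mvd. The smooth muscle sum is highest in Control 3, at 36541 CPM, as are Srebf2, Fdft1 and Lpin1.

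Related gene lists were read in the same fit, and edgeR called 0 genes of any of them, as over all genes tested. Of 11 tested genes that supply or assist sterol synthesis, with a median log2 fold change of -0.05, DESeq2 called 0 (background 3.91% higher and 1.3% lower). At an unadjusted edgeR p below 0.05, 0 were higher (background 9.66%) and 1 was lower (background 7.47%). That gene was Acss2, a cytosolic acetyl-CoA synthetase and SREBP target, with 25.4, 14.3, 14.9, 17.01 and 26.6 CPM in caIKK2EC 1 to 5 and 38.6, 29.7 and 26.4 CPM in Control 1 to 3. The groups overlapped only through caIKK2EC 5, which just exceeded Control 3. Its log2 fold change was -0.68 with an SE of 0.23 (adjusted p 0.192 in edgeR), and Pgrmc1 followed with -0.21. The 9 genes for turnover and transport of SREBP pathway proteins had a median of -0.04, with -0.21 for the ubiquitin ligase gene Rnf139 and 0.37 and 0.16 for the membrane scaffold genes Erlin1 and Erlin2. The 12 tested genes of the isoprenoid branch had a median of -0.03. Coq2 of ubiquinone synthesis had -0.29, the farnesyltransferase subunit gene Fnta -0.15 and Nus1 of dolichol synthesis 0.23. In the turnover and isoprenoid lists DESeq2 called 0 and 0 had an unadjusted edgeR p below 0.05, beside the same backgrounds. Without Control 3 the medians of the sterol-assisting and turnover genes turned to 0.03 and 0.05.

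The SREBP1 and fatty acid synthesis list had a lower median, -0.35 over 11 tested genes. DESeq2 called 0 of these (background 3.91% higher and 1.3% lower). At an unadjusted edgeR p below 0.05, 2 were lower (background 7.47%). They were Me1, malic enzyme, with a log2 fold change of -0.44 (adjusted p 0.163 in edgeR), and Acaca, acetyl-CoA carboxylase, with -0.45 (adjusted p 0.281), while the desaturase gene Scd2 had 0.31. This median was -0.54 without caIKK2EC 1, where genotype and lane coincide, and 0.23 within lane 7. These are genes that adipocytes express strongly, and the adipocyte marker sums given above differ between the same libraries; their part in the values was not tested.

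Genes that handle cholesterol already taken up were on the other side of 0. Of 9 genes for lysosomal release and esterification, all 9 had positive log2 fold changes, with a median of 0.55, while 52.6% of all genes tested were below 0. In caIKK2EC 6 were higher at an unadjusted edgeR p below 0.05 (background 9.66%), and DESeq2 called 5 higher (background 3.91%). The list was chosen with earlier results of these data known. Soat1, which esterifies cholesterol for storage in droplets, had 155.9, 126.4, 218.2, 184.3 and 160.0 CPM in caIKK2EC 1 to 5 and 103.8, 125.8 and 103.3 CPM in Control 1 to 3. Its groups did not overlap, and its log2 fold change was 0.61 with an SE of 0.17 (adjusted p 0.147 in edgeR, 0.0299 in DESeq2). Gramd1b, which moves sterol from the plasma membrane to the endoplasmic reticulum, had 0.90 (adjusted p 0.118 in edgeR, 0.00751 in DESeq2) and Nceh1, a cholesteryl ester hydrolase, had 0.66 (adjusted p 0.144 in edgeR, 0.0248 in DESeq2). Without Control 3, DESeq2 called 1 of the 9 higher, beside 356 of its 16581 genes. The median was 0.45 without Control 3 and 0.49 within lane 7. Macrophages express these genes, and 10 of 11 macrophage markers were called higher by DESeq2, with summed levels that did not overlap between the groups; their part was not tested.

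Of 6 genes of oxysterol formation and breakdown, with a median log2 fold change of 0.14, DESeq2 called 1 higher (background 3.91%). It was Ch25h, the hydroxylase whose oxysterol product holds SREBP2 in the endoplasmic reticulum. Ch25h had 14.6, 12.1, 13.5, 14.2 and 30.4 CPM in caIKK2EC 1 to 5 and 8.56, 7.47 and 7.11 CPM in Control 1 to 3. Every caIKK2EC library was above every Control, and caIKK2EC 5 was far above the rest. Its log2 fold change was 1.14 with an SE of 0.31 (adjusted p 0.136 in edgeR, 0.0107 in DESeq2). Without Control 3, DESeq2 called 0 genes of this list higher, beside 356 of its 16581 genes. The Ch25h log2 fold change in edgeR was 1.08 without Control 3 and 0.92 within lane 7. Cyp7b1, which clears oxysterols, had 0.84 and Cyp27a1 had -0.40, neither called by DESeq2. Macrophage marker sums also did not overlap between the groups. Within caIKK2EC they were highest in caIKK2EC 3, at 18246 CPM, with 16116 CPM in caIKK2EC 5, where Ch25h was highest. The part of macrophages in the Ch25h level was not tested.

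**Figure D5:**
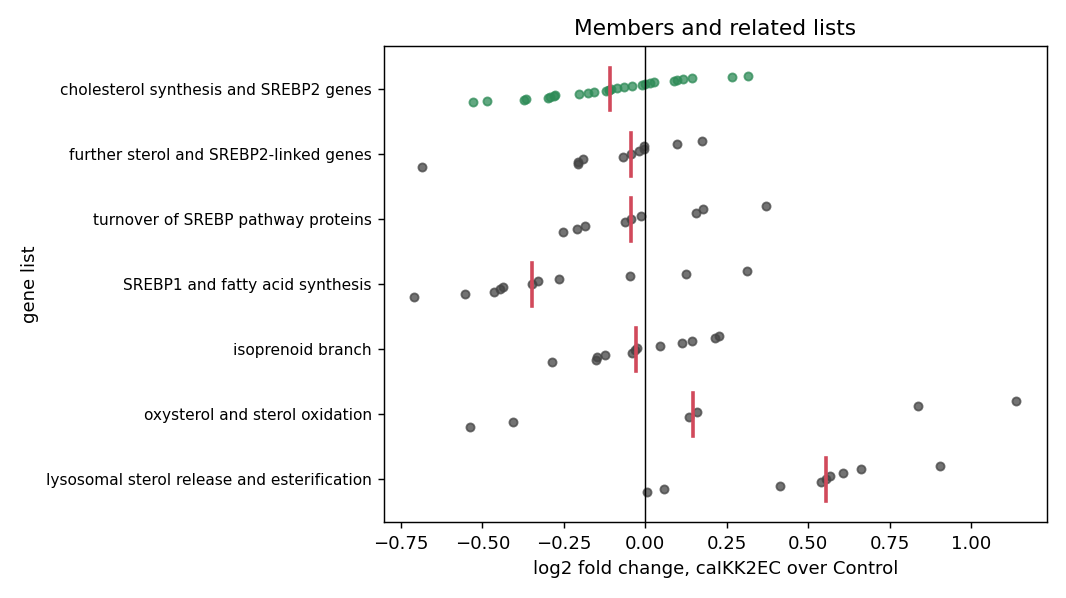
Log2 fold change of caIKK2EC over Control (horizontal; n = 5 and 3) of each tested gene (points) in the cholesterol synthesis and SREBP2 genes (top, green) and in 6 related lists (grey), with a red line at each list's median. The medians are -0.11 for the synthesis genes, -0.35 for fatty acid synthesis and 0.55 for lysosomal release and esterification.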

How the data were processed

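The counts are the authors' deposited whole-number reads per gene symbol. FastQC 0.11.5, STAR 2.7.0e, DESeq2 1.22.2 and the build GRCm38 (mm10) are named in the submitters' processing notes; no source used here states the counting program, its annotation or its strand setting. The authors' deposited comparison table, with log2 fold changes and adjusted p-values per the file headers, was used only where it is named. Genes were tested with edgeR 4.0.16 (R 4.3.3; TMM factors, filterByExpr by group, robust quasi-likelihood fit, Benjamini-Hochberg over 14679 genes, threshold 0.05). The SE of an edgeR log2 fold change was taken as its size divided by the square root of the test's F statistic. The 95% intervals were built from this SE and the t distribution. DESeq2 1.42.0 was the alternative test. Both were tested on simulated data. For single genes an exact two-sided permutation test over the 56 splits used log2(CPM + 0.5), in scipy 1.17.1. Levels per kb used merged exons of GENCODE M21. A search for near-identical copies kept alignments of at least 200 bp and 95% identity. The labels describe separate mice; no 2 libraries agreed within sampling noise (lowest chi-square per degree of freedom 16.92). The number of libraries limits the precision; the counts cover 23461655 to 30808502 reads each. The members and lists were chosen with earlier results of these data known. Values in every library are given for the 6 members of smallest p, for the first by p in each role, and for Srebf2, Scap, Insig1 and Insig2, and of each further list up to 3 genes of smallest p are named; for lysosomal release these were Gramd1b, Nceh1 and Soat1, and 1 gene that this rule names in another list is not reported here. Alternatives were other scaling factors, filters, leaving out each library, covariates, a replicate block and a pseudocount of 1. March6, Erg28 and Trac were not analysed here.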

Additional observations from a re-analysis of the deposited data

Results flagged for a closer look

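In 3 of the 29 genes examined, 1 of the 5 caIKK2EC libraries lay far from the other 4, with a gap above 0.71 of the group's range; chance alone does this in about 1 group in 20. Mbtps1, a protease that cuts SREBPs, was at 136.0 CPM in caIKK2EC 1, below 168.0 to 173.8 CPM in the others. Mbtps2, the second protease gene, was at 18.96 CPM in caIKK2EC 2, below 26.8 to 27.7 CPM in the others, so the low library was not the same for both proteases. Sc5d, a sterol desaturase gene, was at 15.04 CPM in caIKK2EC 5, above 11.5 to 12.4 CPM in the others.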

How the results depend on the processing

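No member was called by edgeR or DESeq2 under any of the 19 alternatives run, and the lowest adjusted p of a member was 0.0859. Of 532 member log2 fold changes, 468 kept their sign and 64 reversed, and 11 members never reversed. Over all genes, edgeR called 0 higher and 0 lower; the counts were 652 and 217 with DESeq2, 407 and 254 with age as a covariate, 356 and 33 with DESeq2 without Control 3, and 0 to 230 and 0 to 129 when each library was left out, the largest without caIKK2EC 2. Members without overlap were 0 with upper-quartile factors (10.3% of all genes) and 1 to 4 when a library was left out; the 4 of 28 (14.3%) were without caIKK2EC 1, where 15.5% of all genes did not overlap, and without Control 2, where 18.9% did not. With lane as a covariate the median was -0.19 and the estimates reversed to 0.28 for Acat2, 0.36 for Hmgcs1, 0.061 for Pmvk, -0.22 for Ggps1, -0.28 for Cyp51, -0.19 for Msmo1, 0.051 for Nsdhl, 0.17 for Ebp, -0.046 for Sc5d, -0.22 for Dhcr7, 0.24 for Insig1, -0.86 for Stard4 and 0.34 for Lpin1. Only Control 3 was male, so the fit with sex as a covariate nearly repeats the fit without Control 3. Both are among the 19 alternatives. With sex as a covariate the estimates reversed to -0.10 for Cyp51, 0.042 for Nsdhl, 0.034 for Ebp and -0.020 for Sc5d. They also reversed to 0.10 for Mbtps1 and 0.14 for Fads2. With DESeq2 without Control 3 they were -0.092 for Cyp51, 0.053 for Nsdhl, 0.045 for Ebp, -0.0092 for Sc5d, 0.0065 for Scap, 0.11 for Mbtps1 and 0.15 for Fads2. With age they were -0.063 for Cyp51, -0.016 for Msmo1 and 0.0099 for Ebp; Ebp was 0.0081 with no filter and 0.0058 with the stricter one; without both libraries numbered 1, Mvk was 0.072 and Ebp 0.013. Leaving out each library gave -0.13 to 0.057 for Mvk, -0.16 to 0.10 for Mbtps1, -0.24 to 0.075 for Hmgcs1, -0.060 to 0.073 for Ebp, -0.10 to 0.10 for Cyp51, -0.14 to 0.042 for Nsdhl, -0.030 to 0.41 for Stard4, -0.020 to 0.13 for Msmo1, -0.019 to 0.27 for Sc5d and -0.31 to 0.14 for Fads2. The causes of these reversals were not tested. A pseudocount of 1 CPM changed no permutation p.

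The replicate numbers are shared by both groups, but same-numbered libraries deviated together with correlations of 0.335, 0.0989 and 0.0968, so only number 1 exceeded 0.1 and the numbers were not taken as pairs; both libraries numbered 1 are from 18-week-old females and ran in lane 7. With the replicate block, over 6 libraries, edgeR called 0 genes (1331 had an unadjusted p below 0.05), the members' median was -0.11, and the estimates reversed to 0.058 for Mvk, -0.16 for Cyp51, 0.073 for Nsdhl, 0.10 for Ebp and -0.23 for Stard4. The results are limited by 3 Controls, by lane 8 holding only caIKK2EC, by 1 male that is a Control, and by whole-vessel RNA; Idi1, with at most 9 reads, could not be judged at this depth. The DESeq2 fit without Control 3 and the fit without both libraries numbered 1 were chosen after seeing the data.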
